A study of Gallus gallus with 8 samples.

Results

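The 710 genes described here lie on the chicken Z chromosome and hold at least 80 reads in sum over 8 RNA-seq libraries, out of 1707 annotated features on Z and 30862 in the whole table. They were chosen by chromosome and read number alone. They hold 99.9% of all reads counted on Z, and the first starts at position 29698 and the last ends at 82223042 (genome build GRCg6a). Of the other 997 features on Z, 510 had no read in any library. The members nearest the limit held 81 to 82 reads, and the nearest features outside it held 79.

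The libraries came from green fluorescent (GFP+) cells of the chicken (Gallus gallus) trunk neural crest, a migratory embryonic population that forms peripheral neurons, glia and pigment cells. The labels describe primary cells that received a scrambled guide RNA (control), or a guide RNA against DLC1, PHF5A or SF3B1 with the genotype given as knockout. Each of the 4 groups held 2 libraries, which were replicates 1 and 2 in the controls and 2 different guides in each knockout, called guide 1 and guide 2 below. About 50000 GFP+ cells were collected per treatment. The labels do not give the sex or number of the embryos, and do not say whether the libraries came from separate cultures, so every p-value measures only the spread between these libraries.

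In birds the male carries a pair of Z chromosomes and the female carries a single Z and a W, a small chromosome that males lack. Birds do not silence a whole Z chromosome in males in the way that mammals silence an X in females, and adjustment of Z gene output between the sexes is known to be partial and to vary from gene to gene. On the chicken Z, male hypermethylated loci are known, where long noncoding RNA is made from the female Z while the male copies are methylated and silent. In a library made from cells of both sexes, the share of reads on W rises with the share of female cells. Here the W share is the percentage of nuclear (non-mitochondrial) counts that fell on the 109 annotated features of W. A single feature held 61.7% of the W reads, and 35 of the 109 features held at least 80 reads. The share of female cells behind a given W share was not known, so no value below is a ratio of female to male.

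Nuclear counts ran from 14200279 to 31617387 per library, and depth moved with the groups: the controls held 14200279 and 14321398, the SF3B1 libraries 17718549 and 15214633, and the 4 DLC1 and PHF5A libraries at least 27240117. Mitochondrial counts, left out of every level below, took 25.9% and 21.4% of the total in controls 1 and 2 and 8.01% to 19.6% in the knockout libraries. Their share was higher in the library with more W in the controls, DLC1 and PHF5A knockout, and lower in SF3B1 knockout, and its part in the results below was not tested. Levels are CPM, the count scaled to a common nuclear library total of 1e+06. A bulk level cannot tell fewer cells of a type from less RNA per cell. The median member stood at 16.9 CPM and the most abundant at 2690 CPM over all libraries, and the 10 most abundant held 22.3% of the members' reads. The deposited table pairs no gene name with its Ensembl IDs, so the named roles of these genes, the targeted genes and cell type markers were not analysed here, and most genes are given by position.

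The Z genes' share of nuclear counts was lower in libraries with more W, in an almost straight line. Control 2, with a W share of 0.00279%, had the highest Z share, 3.92%. PHF5A guide 1 followed, with 0.0402% W and 3.70% Z. DLC1 guide 1 had 0.117% W and 3.21% Z, and PHF5A guide 2 had 0.121% W and 3.26% Z. This was the only neighbouring pair, in the order of W share, whose Z shares went the other way. DLC1 guide 2 had 0.138% W and 3.00% Z. SF3B1 guide 2 had 0.193% W and 2.86% Z, and control 1 had 0.198% W and 2.75% Z. SF3B1 guide 1, with the most W (0.259%), had the lowest Z share, 2.59%, which was 0.662 times that of control 2. The Wilson 95% interval of each Z share extended at most 0.0101 percentage points to either side and covers counting error only.

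**Figure D1:**
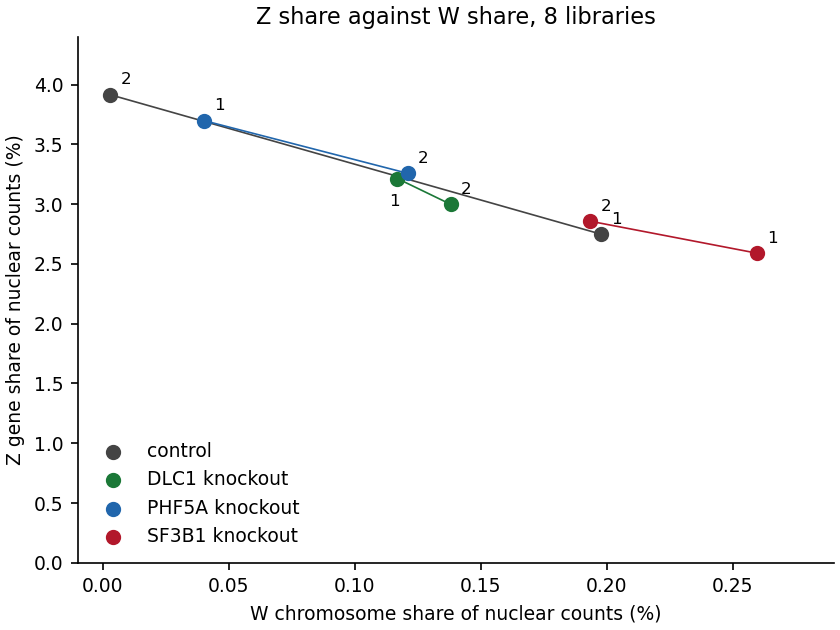
Share of nuclear counts on the Z genes (vertical axis, %, from 0) against the share on W (horizontal axis, %) in each of the 8 libraries, coloured by group. Numbers give the replicate or guide, and lines join the 2 libraries of a group. Each of the 4 lines slopes downward, from 3.92% Z at 0.00279% W in control 2 to 2.59% Z at 0.259% W in SF3B1 guide 1.

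Over the 8 libraries Pearson's r of Z share and W share was -0.986 and Spearman's rho -0.976, given as a description with no p. The fitted Z share was 3.88% at no W and 5.38 percentage points lower for each percentage point of W, with no library more than 0.138 percentage points from the line. Without the 2 libraries farthest from the median W share (control 2 and SF3B1 guide 1), r was -0.982. Both shares have the same denominator. Set against the autosomes, the order was close to this but not the same. The Z median of log2 CPM minus the autosomal median was -0.17 in PHF5A guide 1, the highest on this scale, -0.25 in control 2, -0.31 in DLC1 guide 1 and -0.36 in PHF5A guide 2. It was -0.75 in SF3B1 guide 1, the lowest, and its r with the W share was -0.932.

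Within each group, the library with more W had the smaller Z share. The controls differed most in W, and their Z share was 0.702 times as large in control 1, with more W, as in control 2. The ratio was 0.881 for PHF5A guide 2 over guide 1, 0.907 for SF3B1 guide 1 over guide 2 and 0.933 for DLC1 guide 2 over guide 1, where the W shares differed by only 0.0212 percentage points. In DLC1 knockout the 35 W genes with at least 80 reads had a median log2 ratio of 0.03, and 17 (48.6%) were lower in guide 2. In each other group 5.71% were lower with more W. The order of the 2 DLC1 libraries by W was thus not borne out by W genes as a class. Gene by gene, the median log2 ratio of more W over less W was -0.38 for Z genes and 0.05 for autosomal genes in the controls, -0.20 and 0.005 in PHF5A knockout, -0.01 and 0.11 in SF3B1 knockout, and -0.18 and -0.12 in DLC1 knockout. Z genes thus lay below autosomal genes by 0.43, 0.20, 0.12 and 0.05 on the log2 scale. The order of these gaps followed the differences in W share, which were 0.195, 0.0808, 0.0660 and 0.0212 percentage points.

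**Figure D2:**
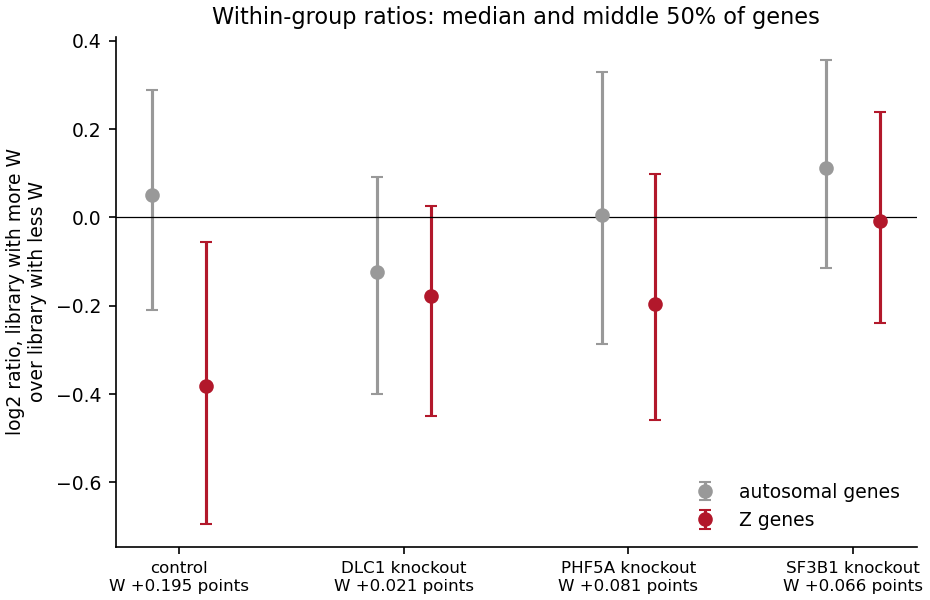
Log2 ratio of CPM in the library with more W over the library with less W, for each of the 4 groups (horizontal axis, with the difference in W share in percentage points). Points are medians and bars span the middle 50% of genes, for 14006 autosomal genes (grey) and the 710 Z genes (red). The red median lies below the grey one in all 4 groups, by 0.43 in the controls and by 0.05 in DLC1 knockout.

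The control pair shows the pattern with no knockout in either library. Of the 710 Z genes, 550 (77.5%) had the lower CPM in control 1, against 45.3% of all tested genes. A drop from 2 copies of Z to 1 in every cell, with no adjustment, would be a log2 ratio of -1. In the controls 72 Z genes (10.1%) lay below that, against 4.30% of all tested genes. The share of female cells in either control was not known, and a mixture of both sexes would give a smaller drop. The count therefore does not measure a lack of adjustment. At the other end, 160 Z genes (22.5%) were higher in control 1.

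Each gene's slope on W share was then estimated in all 8 libraries with a term for group, so that it rests on the difference between the 2 libraries of each group. In the knockout groups these are 2 different guides, so W share and guide cannot be told apart there. The slope is the change in log2 level for each 0.1 percentage points of W. All 710 Z genes were among the 15529 nuclear genes tested. Their median slope was -0.24, against -0.005 for autosomal genes and -0.01 over all genes tested. The middle 50% of Z genes lay between -0.36 and -0.10, and that of autosomal genes between -0.10 and 0.09. Slopes below 0 were found for 630 Z genes (88.7%), against 53.1% of all genes tested.

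**Figure D3:**
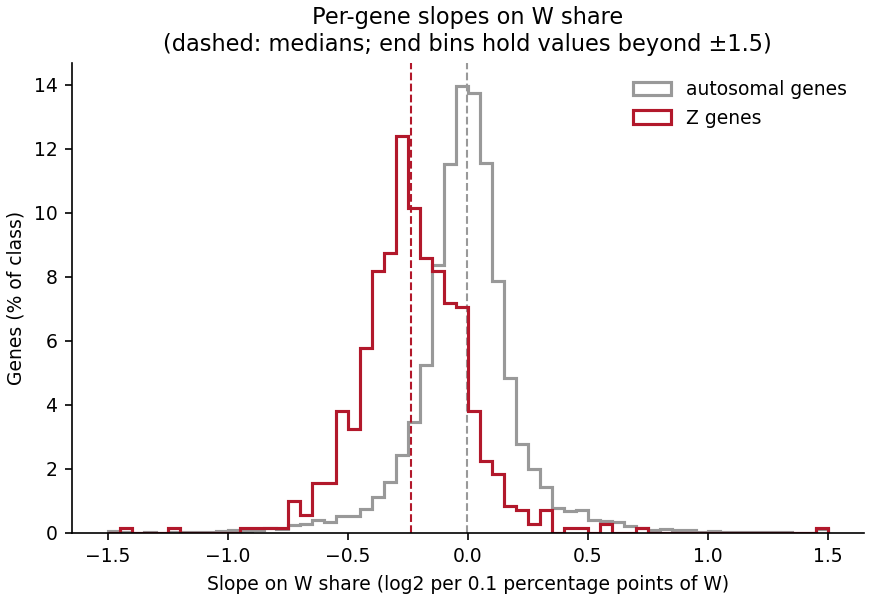
Distribution of slopes on W share (horizontal axis, log2 change for each 0.1 percentage points of W, in bins of 0.05) as a percentage of genes of each class (vertical axis), for the 710 Z genes (red) and 14004 tested autosomal genes (grey). Dashed lines mark the medians, -0.24 and -0.005. The red curve is shifted to the left as a whole, and overlaps the grey one.

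No single Z gene passed the threshold. edgeR's quasi-likelihood test called 0 of the 710 in either direction at an adjusted p under 0.05 (0% of all genes tested in either direction), as did DESeq2 and limma-voom. At an unadjusted p under 0.05, 160 Z genes (22.5%) were lower with W share, against 1.60% of all genes tested, and 1 was higher, against 0.670%. DESeq2 gave 130 and 1, and limma-voom 137 and 1 (no share over all genes was at hand for these tools). The count of 160 was far smaller without either control, smaller without either SF3B1 guide and larger without either PHF5A guide. How the count over all genes moved in those fits was not at hand, so the change cannot be read as particular to Z. The median slope moved less, with a range of -0.23 to -0.21 over the 8 fits that left out 1 library. Leaving out 1 library also takes the other library of its group out of the slope, so these are not 8 separate checks. With the logarithm of W CPM in place of the W share, edgeR called 0 Z genes, while 13 genes were called as higher with W (0.0837% of those tested) and 0 as lower (0%). All 13 lay on W, and their own counts enter the W CPM, so their rise with it was built into the fit.

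The count of genes that went the same way in all 4 groups needs no estimate of spread. The library with more W had the lower CPM in all 4 groups for 102 Z genes (14.4%), against 2.72% of all genes tested. It had the higher CPM in all 4 for 2 Z genes (0.282%), against 3.26%. In single groups 50.7% (SF3B1 knockout) to 77.5% (controls) of Z genes were lower with more W. A shift of the whole class can thus raise the count of 102 without single genes being consistent. With each library centred on its autosomal median the counts were 108 (3.68% of all genes tested) and 3 (2.36%). The order of the DLC1 libraries by W was not borne out by W genes as a class. In the 3 groups with the larger W differences, leaving out DLC1, 153 Z genes (21.5%) were lower in each library with more W, against 4.19% of all genes tested.

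Abundant Z genes with this pattern were found along the chromosome. The gene at 40087957 to 40107154 (minus strand) stood at 608 CPM in control 1 and 827 in control 2, 666 and 655 in DLC1 guides 1 and 2, 791 and 663 in PHF5A guides 1 and 2, and 547 and 601 in SF3B1 guides 1 and 2. It was lower wherever W was higher in a group, by very little in DLC1 knockout (slope -0.27, SE 0.116, edgeR unadjusted p = 0.0418). The gene at 66228754 to 66242102 (plus strand) stood at 105 and 183 CPM in the controls, 111 and 106 in the DLC1, 155 and 117 in the PHF5A and 90.8 and 106 in the SF3B1 libraries, again lower with more W in all 4 groups (slope -0.45, SE 0.110, unadjusted p = 0.00231). Both were picked as examples after their values were seen, and neither was called after adjustment (edgeR adjusted p = 1.00).

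The 2 genes named as lower with W, by the rule given with the processing, were ENSGALG00000067120 and ENSGALG00000004518. They had the smallest unadjusted p among eligible genes, not the steepest slopes on Z, which reached -1.43. ENSGALG00000067120 (58590992 to 58654975, plus strand) stood at 2.18 and 8.73 CPM in controls 1 and 2, 7.55 and 4.68 in the DLC1, 6.33 and 4.37 in the PHF5A and 7.62 and 7.23 in the SF3B1 libraries. Control 1 was the lowest of the 8, and the SF3B1 libraries went slightly the other way. Its slope was -0.91 (SE 0.213, edgeR unadjusted p = 0.00181, adjusted p = 1.00), and -0.51 without control 1 or without control 2. ENSGALG00000004518 (22435115 to 22451947, minus strand) stood at 9.44 and 22.1 CPM in the controls, 10.6 and 8.10 in the DLC1, 8.13 and 6.13 in the PHF5A and 8.41 and 9.60 in the SF3B1 libraries. Control 2 was far above the other 7 libraries, and the library with less W was the higher one in all 4 groups (slope -0.63, SE 0.152, unadjusted p = 0.00228, adjusted p = 1.00).

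In some of the most abundant Z genes the slope came largely from control 2. The gene at 12914799 to 12920876 (minus strand) stood at 507 CPM in control 1 and 1205 in control 2, and at 291 to 411 in the 6 knockout libraries. In PHF5A knockout the library with more W was the higher one (404 against 358 CPM). The most abundant member, at 33734147 to 33745389 (minus strand), stood at 3223 and 5346 CPM in the controls and at 1967 to 2689 in the knockouts, and was lower with more W in 2 of the 4 groups.

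Whether the slope of a gene held in other libraries was asked by setting the control pair against a fit of the 6 knockout libraries alone. As a class the Z genes lay below 0 in both: the control pair's median ratio comes to -0.20 for each 0.1 percentage points of W, and the knockout libraries gave a median of -0.22. The first is a ratio of CPM and the second an edgeR slope, so their scaling differs. The median ratios of the 4 single groups, each for 0.1 percentage points of W, had an SD of 0.36. This is larger than either value. These single-group ratios were not set against the autosomal median. In the DLC1 pair, whose W shares differed by only 0.0212 percentage points, autosomal genes stood at -0.12 and Z genes at -0.18. The SD thus takes in differences in library scaling and does not measure the spread of the gap between Z and autosomal genes. For autosomal genes the control pair's value was 0.03 and the knockout median 0.004. Both sets put 441 Z genes (62.1%) below 0, as they did 15.8% of autosomal genes. In the control pair alone 77.5% of Z genes lay below 0. A shift of the whole class can thus give such a count without single genes agreeing. Gene by gene the sets did not rank alike. Across the 710 Z genes, which are not independent replicates, Pearson's r between them was -0.114, and across autosomal genes it was -0.256. The control set is a single pair with no measure of its spread, and the r of autosomal genes was further below 0 than that of Z genes. The split therefore cannot show whether the order of single Z genes by slope on W share repeats.

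Along the chromosome the shift was present throughout. In consecutive windows of 5 Mb, each of the 17 had a median slope below 0, from -0.30 between 75 and 80 Mb (12 genes) to -0.17 between 15 and 20 Mb (40 genes). In the control pair the window medians of the log2 ratio ran from -0.53 to -0.16, and in the knockout libraries the window medians of the slope ran from -0.37 to -0.13. Genes with a slope above 0 made up 0% to 22.5% of a window. The highest share, 9 of 40, was in the window from 25 to 30 Mb, followed by 8 of 40 from 70 to 75 Mb. The window medians of the controls and of the knockouts had an r of -0.199 over the 17 windows, as a description. The limit given for single genes holds for this value too.

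A running median over 15 neighbouring genes stayed below 0 at all of its 696 positions. Its SD was 0.0627, against 0.0239 to 0.0592 on the 29 autosomes with at least 100 tested genes. By bounds set after the data were seen, it lay above -0.1 over at least 5 consecutive genes in 2 places. The first was a stretch of 15 consecutive genes from 25948573 to 27681453, where it lay between -0.10 and -0.05. The other covered 5 genes from 52125572 to 52811749, next to the lowest value on the chromosome (-0.39, at 51789482). The 5 genes themselves had slopes from -0.51 to 0.12 with a median of -0.47, so the value there came from their neighbours on either side. Of the 5, the genes at 52125572 to 52160000 (plus strand, slope -0.47) and 52144196 to 52181424 (minus strand, slope 0.12) overlap, and their reads could not be told apart with certainty. A running median more than 0.15 above that of its own chromosome occurred at 18 positions on Z (2.59%) and at 28 of 14046 positions on the autosomes (0.199%). Chromosome 1 had a larger upward departure than Z, 0.25 against 0.19. Downward, the autosomes reached -0.26 (chromosome 2) and Z reached -0.15. Neighbouring positions share most of their 15 genes, so the positions are not independent. Shorter runs above -0.1 occurred elsewhere on Z, for example at 8539006 (-0.08). In bins of 1 Mb, chosen after the values were seen, the median slope was -0.09 from 26 to 27 Mb and -0.11 from 27 to 28 Mb. It was nearer 0 from 62 to 63 Mb (-0.03, 6 genes) and from 73 to 74 Mb (-0.07, 14 genes), so the stretch was not singular.

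**Figure D4:**
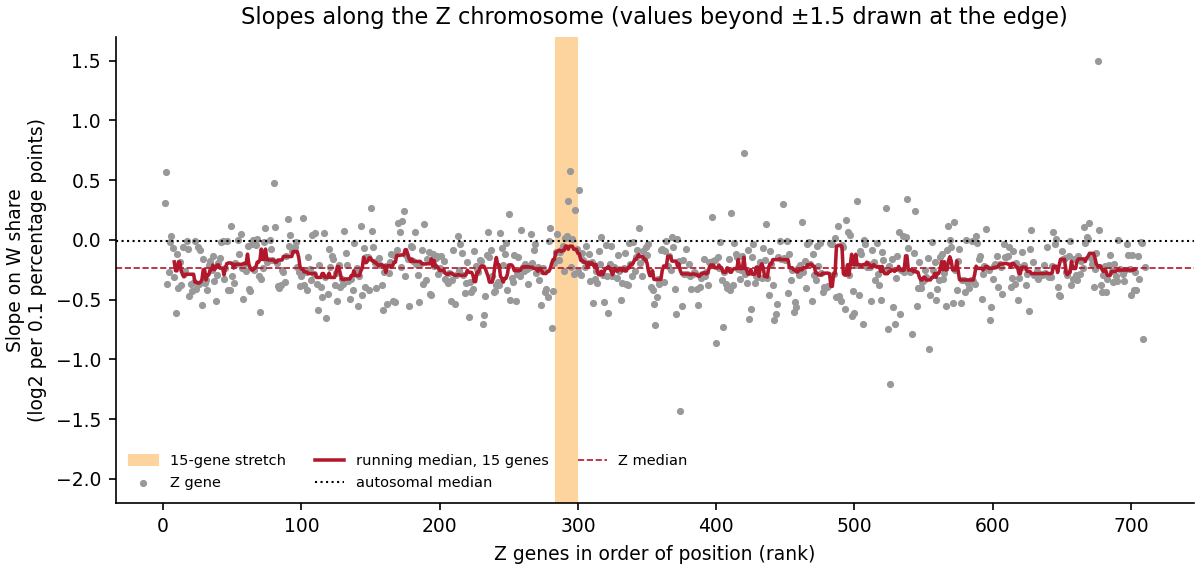
Slope on W share of each of the 710 Z genes (vertical axis, log2 change for each 0.1 percentage points of W) in order of position along the chromosome (horizontal axis, rank). Grey points are genes, the red line is the running median of 15 genes, the dashed line is the Z median (-0.24) and the dotted line the autosomal median (-0.005). The running median stays below 0 throughout. It lies above -0.1 over at least 5 consecutive genes in the shaded 15-gene stretch and at a second place farther right.

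In the stretch from 25948573 to 27681453, 7 of the 15 genes had a slope above 0 and the median slope was -0.05. In the controls 8 of the 15 were lower in control 1, with a median log2 ratio of -0.02, while 542 of the other 695 Z genes (78.0%) were lower there, with a median of -0.40. In the knockout libraries alone the medians were -0.03 in the stretch and -0.23 elsewhere on Z. Set against the autosomal median of each group, the stretch stood at -0.07 in the controls, 0.04 in PHF5A, -0.09 in SF3B1 and -0.04 in DLC1 knockout. The rest of Z stood at -0.45, -0.21, -0.12 and -0.05. The gap was thus wide in the controls and in PHF5A knockout, and close to nil in the other 2 groups. The stretch was chosen on slopes from all these libraries, so neither set is independent of the choice, and it was not tested. Its genes were also less abundant, with a median of 8.49 CPM against 17.1 for the rest.

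**Figure D5:**
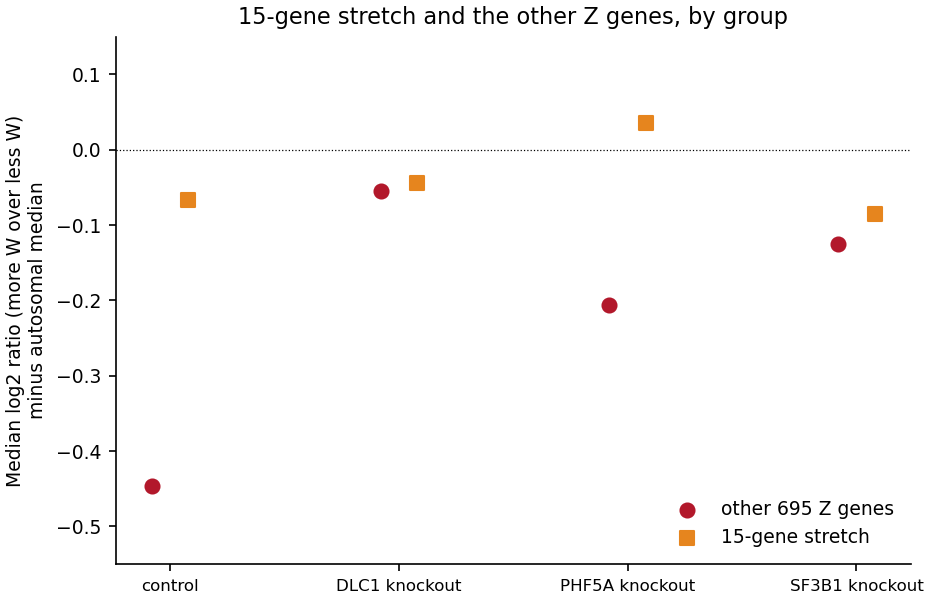
Median log2 ratio of more W over less W, minus the autosomal median (vertical axis), in each of the 4 groups (horizontal axis), for the 15-gene stretch (squares) and the other 695 Z genes (circles). The circles lie at -0.45 in the controls and -0.21 in PHF5A knockout, where the squares lie at -0.07 and 0.04, and the marks are close together in SF3B1 and DLC1 knockout.

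The stretch was not uniform. The gene at 27422370 to 27444468 (minus strand) was 1 of the 2 members that were higher with more W in all 4 groups, with 0.634 and 0.279 CPM in controls 1 and 2, 1.19 and 1.37 in the DLC1, 0.822 and 0.991 in the PHF5A and 1.30 and 0.789 in the SF3B1 libraries. These levels rest on 4 to 40 reads (slope 0.58, SE 0.321, edgeR unadjusted p = 0.106). The gene at 27065431 to 27125152 (plus strand) stood at 3.17 and 1.75 CPM in the controls, 4.75 and 3.11 in the DLC1, 3.35 and 3.45 in the PHF5A and 5.47 and 4.08 in the SF3B1 libraries. It was higher with more W in 3 of the 4 groups and went the other way in DLC1 knockout (slope 0.33, SE 0.220, unadjusted p = 0.171). Among them lay genes that behaved like the rest of Z. The gene at 27481115 to 27521752 (plus strand) stood at 95.2 and 122 CPM in the controls, 130 and 117 in the DLC1, 158 and 111 in the PHF5A and 90.1 and 98.3 in the SF3B1 libraries, lower with more W in all 4 groups (slope -0.28, SE 0.116, unadjusted p = 0.0354). Since the IDs carry no names here, the relation of this stretch to the male hypermethylated loci was not tested.

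A single Z gene was higher with W share at an unadjusted p under 0.05. This gene lay at 73366670 to 73377268 (plus strand). It held 0 reads in control 2 and 10 in control 1, 2 in PHF5A guide 1 and 22 in guide 2, 18 and 12 in SF3B1 guides 1 and 2, and 13 and 12 in DLC1 guides 1 and 2. The 2 libraries with the least W held the fewest reads. Its level in control 1, 0.704 CPM, was 3.36 times the floor of 3 counts in control 2 (0.209 CPM), with the counting error of the 10 reads left out. Its slope was 2.45 (SE 0.669, edgeR unadjusted p = 0.00486, adjusted p = 1.00), with 89 reads in all. Reads counted here that came from a similar sequence on W could not be told apart from its own.

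Near it lay ENSGALG00000027140 (73209983 to 73217576, plus strand), the other member that was higher with more W in all 4 groups and 1 of the 2 that the rule named in this direction. It stood at 8.66 and 6.77 CPM in the controls, 15.2 and 15.7 in the DLC1, 12.7 and 13.0 in the PHF5A and 13.4 and 11.6 in the SF3B1 libraries. The differences within the groups were small, and the slope was 0.14 (SE 0.149, edgeR unadjusted p = 0.377, adjusted p = 1.00). Its neighbour at 73197009 to 73204611 (plus strand), at 129 to 236 CPM, had a slope of 0.01 (SE 0.132). The other named gene, ENSGALG00000014700 (16737019 to 16761279, minus strand), stood at 5.77 and 3.56 CPM in the controls, 49.7 and 52.9 in the DLC1, 69.2 and 44.5 in the PHF5A and 17.9 and 9.0 in the SF3B1 libraries. All 6 knockout libraries lay above both controls. Its slope was 0.24 (SE 0.228, edgeR unadjusted p = 0.314, adjusted p = 1.00), 0.05 without either control and 0.49 without either PHF5A guide.

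The median slope was nearly the same at every level of expression. In 3 equal classes of Z genes by mean CPM, from lowest to highest, it slope was -0.23, -0.23 and -0.24. The spread narrowed as counts grew: the share of genes with a slope above 0 was 17.3% in the lowest class and 6.75% in the highest, and the share lower in all 4 groups was 8.02% and 19.8%. By genomic span, the median slope was -0.27 for the shortest class (up to 13703 bases), -0.23 for the middle class and -0.20 for the longest (from 44610 bases), while autosomal genes of the same spans stood between -0.01 and 0.002. Genes on the plus and the minus strand had medians of -0.23 and -0.24.

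The knockouts were compared with control next, since their mean W shares differed. The W share was 0.10% ± 0.138 in control, 0.127% ± 0.0150 after DLC1 guides, 0.0805% ± 0.0571 after PHF5A guides and 0.226% ± 0.0466 after SF3B1 guides (SD, n = 2 each). The Z share was 3.33% ± 0.825, 3.11% ± 0.153, 3.48% ± 0.312 and 2.72% ± 0.189 in the same order. The controls span almost the whole range of Z share, and 5 of the 6 knockout libraries lie between them. The 3 comparisons share the control libraries. With library size alone as the scaling, the median over all genes was 0.28 after DLC1 guides (0.10 in the main fold changes), 0.35 after PHF5A guides (0.10) and 0.31 after SF3B1 guides (0.04), so the gap between Z and autosomal genes is given beside each median.

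In SF3B1 knockout, with the most W, more Z genes fell than rose. Its mean W share lay 0.126 percentage points above that of the controls, less than their SD of 0.138. Of 710, 72 (10.1%) fell and 36 (5.07%) rose (edgeR adjusted p under 0.05), while over all genes tested 5.13% fell and 11.1% rose. The median log2 fold change was -0.23 on Z (0.04 when scaled by library size alone) and 0.04 on the autosomes, a gap of -0.27 under each of the 3 scalings. With median-ratio scaling 111 Z genes fell (15.6%, against 7.44% of all genes tested) and 32 rose (4.51%, against 9.75%). With library size alone 21 fell (2.96%, against 1.53%) and 65 rose (9.15%, against 19.4%). When the W share entered the fit, the medians were 0.05 and 0.04, and 0 Z genes were called, but then 2 genes were called in all (0.0129%). The count of Z calls was lower in most fits with 1 library left out, most of all without SF3B1 guide 1. It was higher without either PHF5A guide. No share over all genes was at hand for these fits.

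PHF5A knockout had the lowest mean W share, but its difference from the controls (-0.0197 percentage points) was small beside their SD of 0.138. Of its Z genes, 145 (20.4%) rose and 50 (7.04%) fell, against 18.0% and 13.6% of all genes tested. The median was 0.25 on Z and 0.09 on the autosomes, a gap of 0.16. It was 0.24 and 0.10 when the W share entered the fit, a gap of 0.14. With library size alone as the scaling, 227 Z genes rose (32.0%, against 27.5% of all genes tested) and 26 fell (3.66%, against 7.70%). In DLC1 knockout, with a mean W share a little above that of the controls, 68 Z genes (9.58%) rose and 39 (5.49%) fell, against 10.5% and 8.01% of all genes tested. The median was 0.10 on Z and 0.10 on the autosomes, a gap of 0.006, and 0.19 and 0.11 when the W share entered the fit. With median-ratio scaling 57 rose (8.03%, against 8.81% of all genes tested) and 54 fell (7.61%, against 9.78%), and with library size alone 118 rose (16.6%, against 16.7%) and 30 fell (4.23%, against 5.16%). The count of Z calls in DLC1 knockout was much lower without control 2 or either DLC1 guide. That in PHF5A knockout was lower without either control or PHF5A guide 1. For these fits too, no share over all genes was at hand.

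Some Z genes were called in all 3 knockouts, in comparisons that share the control libraries. The number of such genes, on Z or over all genes tested, is not given here. ENSGALG00000014700 rose in each, with a log2 fold change of 3.28 after DLC1 guides (SE 0.352, edgeR adjusted p = 0.00187), 3.36 after PHF5A guides (SE 0.352, adjusted p = 0.000968) and 1.26 after SF3B1 guides (SE 0.346, adjusted p = 0.0359). The gene at 71871238 to 71944683 (minus strand) stood at 3.87 and 5.38 CPM in the controls and at 12.8 to 44.6 CPM in the knockout libraries, with no overlap. Its log2 fold changes, given for DLC1, PHF5A and SF3B1 in that order, were 2.16, 3.00 and 2.74 (edgeR adjusted p = 0.00839, 0.00160 and 0.00550). The gene at 70409617 to 70420993 (minus strand) stood at 134 and 226 CPM in the controls, 46.7 and 25.3 in the DLC1, 33.9 and 44.6 in the PHF5A and 109 and 90.3 in the SF3B1 libraries. All 6 knockout libraries lay below both controls, and it fell by 2.53, 2.46 and 1.13 on the log2 scale (adjusted p = 0.00320, 0.00157 and 0.0338). The last 2 were picked after their values were seen, from the genes with the largest changes.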

How the data were processed

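Per the labels' protocols, RNA of collected GFP+ cells was treated with DNase, and the Illumina Stranded mRNA Prep kit was used for the libraries. Per the submitters' processing notes, FastQC 0.12.1, Trimmomatic 0.39, STAR 2.7.11b, featureCounts 1.5.3 (Subread) and genome build GRCg6a were used. Neither the strand setting nor the release of the annotation is known, both being not given in the sources used here. Raw counts, 1 value for each Ensembl gene ID and library, were deposited with position and length, and the length equalled the whole genomic span in 100% of rows. Counts can therefore take in intronic reads, and 176 of the 710 members overlap another Z feature, whose reads could not be told apart with certainty. Reads shared by Z genes and their W copies are likewise uncertain. All 8 count columns matched a labelled sample. The RefSeq table at hand (25635 genes, assembly GRCg7b) matched 0 of the IDs, and no sequence was printed since none of that build was at hand.

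Levels are counts scaled to a nuclear library total of 1e+06 (CPM). Log2 CPM used a prior count of 2. Slopes and fold changes came from edgeR 4.0.16 (R 4.3.3): filterByExpr (15529 nuclear genes kept), TMM scaling, quasi-likelihood F-test with robust dispersion, Benjamini-Hochberg adjustment over all genes tested, called at an adjusted p under 0.05. Designs were group plus W share in units of 0.1 percentage points (3 residual degrees of freedom), and group alone (4). The counts at an unadjusted p, the centred and 3-group counts, the knockout-only fit, the running-median stretches (running median above -0.1 over at least 5 genes) and the limma-voom fit (limma 3.58.1) were added after the data were seen. DESeq2 1.42.0 was an alternative. The fits were run on simulated counts with planted slopes far steeper than the median slope on Z. That check does not show how often slopes of the size seen here would be called. Standard errors came from the estimate and the F statistic. Named genes were the 2 in each direction with the largest slope among called genes with a mean of at least 5 CPM and the same sign in at least 3 of 4 groups. As none was called, the smallest unadjusted p filled the places. The members and lists were chosen with earlier results of these data known.

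The chi-square per degree of freedom between replicates was 19.4 to 61.5, above sampling noise. A count of 3 corresponded to 0.0949 to 0.211 CPM. Such floors, like the Wilson intervals, hold counting error alone: without molecular identifiers, reads are not independent molecules.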

Additional observations from a re-analysis of the deposited data

How the results depend on the processing

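The count of 0 Z genes called on W share, the median slope and the correlation of Z share with W share (from -0.993 to -0.978 with 1 library left out) kept their direction and side of the threshold under the alternatives run for each. The median slope was -0.20 when scaled by library size alone and -0.25 with no group term. With the W feature that held the most reads left out of the W share, the median slope was -0.24 and r was -0.959. With 1 library left out, the Z genes at an unadjusted p under 0.05 numbered 6 to 197 lower and 1 to 5 higher. With no group term the slope of ENSGALG00000014700 was -0.72, against 0.24 with it, and that of ENSGALG00000067120 was -0.23, against -0.91.

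The knockout comparisons moved more. The median fold change of Z genes in SF3B1 knockout was -0.30 with median-ratio size factors, 0.039 with library size only and 0.050 when the W share entered the fit, and that in PHF5A knockout was 0.50 with library size only. With no filter on low counts, 190 Z genes were called in DLC1 and 195 in SF3B1 knockout. SF3B1 knockout had 184 with DESeq2, and 0 when the W share entered the fit, where the fit called almost no gene anywhere. With 1 library left out, the counts ran from 11 to 136 (DLC1), 115 to 180 (PHF5A) and 4 to 171 (SF3B1), and the medians from -0.091 to 0.32, 0.023 to 0.49 and -0.43 to -0.022. The DLC1 median was -0.091 without control 1 and -0.025 without DLC1 guide 1. No share over all genes was at hand for these counts, nor for those given above with 1 library left out. The fit with the W share is the exception. The counts thus do not show whether Z genes moved apart from the rest. The cause of the shifts in these counts and medians was not tested. Where a group keeps 1 library, that library is assumed to vary like the others.

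With the replicate number as a block, 179 Z genes were called in SF3B1, 152 in DLC1 and 222 in PHF5A knockout (no share over all genes at hand). The median slope was -0.24 with this block of replicate numbers. The numbers share no stated origin, and the correlation of same-numbered deviations between groups ran from -0.246 to 0.331 across genes, so they do not pair the libraries. The depth limits single genes: the floor of 3 counts lay at up to 0.211 CPM.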
